A study of Oryctolagus cuniculus with 10 samples.

Results

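The most abundant transcripts of the control fetal rabbit lung are described here across a surgical model of congenital diaphragmatic hernia. They were chosen by their measured control values, as the genes with a mean CPM of at least 1000 (the standard depth-scaled unit, a count divided by all counts of its library and multiplied by 1000000) over the 3 control libraries. The rule took 83 of the 13429 genes in the table, or 0.618%, and all 83 passed the filter on low counts. Because control values chose these genes, their levels in controls are a description. Tests compared only groups among the 7 libraries from operated fetuses. The main fit behind these tests held all 10 libraries, so the controls entered its estimate of spread. CPM was not divided by transcript length, so a rank orders counts and not numbers of molecules.

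Bulk lung RNA of New Zealand rabbit fetuses was sequenced. The sampled tissue was the outer side of the left upper lobe, taken near term, 3.5 days after occlusion and 5.5 days after the hernia was made. Days are given as embryonic days (E25 and E27). The groups were 3 controls, for which the labels name no operation, 2 fetuses with a left diaphragmatic hernia made at E25, 2 with tracheal occlusion at E27, and 3 with the hernia at E25 followed by occlusion at E27. A hernia lets abdominal organs into the chest, and occlusion of the trachea holds back lung fluid and stretches the lung. Whether controls were sham-operated, which fetuses were littermates and their sex are not stated, and the p-values below measure only the spread between these libraries. Both hernia libraries carry titles starting M38 and M39, while all others start M83 to M98. Any difference tied to these titles cannot be told apart from one tied to the untreated hernia. The titles of all 3 controls end in L3, and no other title does. What this ending stands for is not stated. Any difference tied to it cannot be told apart from one between controls and operated fetuses. M83 starts the titles of control replicate 2 and hernia with occlusion replicate 1, and M88 those of occlusion replicate 2 and hernia with occlusion replicate 3, and what the stems stand for is not stated.

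As background, a tissue's most abundant mRNAs usually come from a few classes. Genes of protein synthesis, of the cytoskeleton and of mitochondria are abundant in most cells. Collagens and other matrix proteins are abundant in growing connective tissue, and surfactant proteins, which lower surface tension in the alveoli, become abundant in the lung near term. The deposited table gives Ensembl rabbit identifiers alone, and 0 of the 83 could be paired with a symbol in the reference used here. Which genes belong to which class is therefore not stated, no sequence is shown, and lung markers could not be checked.

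Libraries held 16383835 to 22239034 counts, and 3 of the 10 stood apart before any comparison. On the first principal component of all genes (33.6% of the variance), occlusion replicate 1 lay at 35.2, and hernia with occlusion replicates 1 and 3 lay at 31.3 and 44.4. The other 7 libraries ran from -30.8 to -4.44, among them occlusion replicate 2 at -22. The 2 occlusion libraries thus lay far apart. Counting error was small for these abundant genes. The lowest count of any of the 83 genes in any library was 3387, a counting error of 1.7%. The counts are estimates, and any error in assigning reads between similar genes is not part of this value.

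Together the 83 genes took a nearly equal share of counts in all controls. The share was 21.25%, 21.07% and 21.04%, a mean of 21.1% ± 0.11 (SD, n = 3). It was 22.34% and 21.24% with a hernia (21.8% ± 0.78, SD, n = 2) and 19.39% and 21.78% with occlusion (20.6% ± 1.7, SD, n = 2). After hernia and occlusion it was 19.51%, 21.23% and 19.24% (20% ± 1.1, SD, n = 3). The 3 libraries that stand apart on the first component were also the 3 lowest in this share, and the part of that component in the share was not tested. Hernia with occlusion averaged 1.8 percentage points below hernia, and the groups just missed overlapping. That difference did not pass a two-sided exact permutation test (p = 0.2, where the smallest p the design allows is 0.1). Each share's 95% Wilson interval spans at most 0.04 percentage points, which covers counting error only.

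By summed share, the top 3 genes varied most between libraries among 3 bands of rank. They held 4.96%, 4.81% and 4.86% of counts in controls, 6.54% and 5.26% with a hernia, 3.27% and 5.87% with occlusion, and 3.41%, 4.61% and 3.35% with both operations. The 17 genes of ranks 4 to 20 ranged from 6.74% to 7.67% over the libraries. The 63 genes of lower rank ranged from 8.81% to 9.32%. Within the 83, 16 genes made up 50% of what the 83 held in controls. For 50% of all counts, the controls needed 789 to 830 genes. In bulk tissue, fewer cells of a type and less RNA per cell cannot be told apart, here and in all results below.

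**Figure D1:**
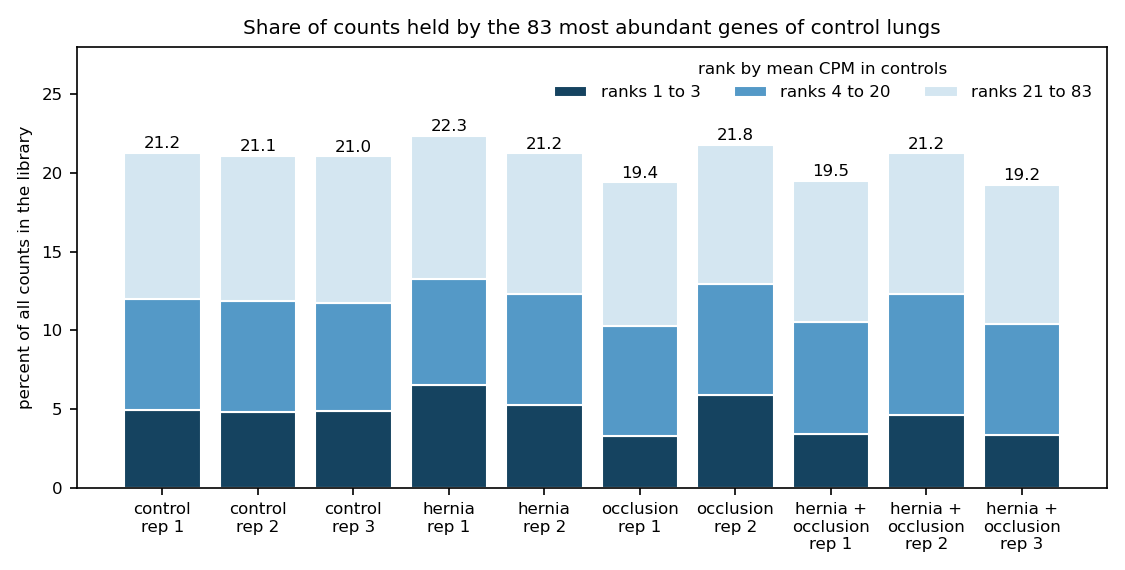
Stacked bars show, for each of the 10 libraries, the percent of all counts held by the 83 genes, split by their rank in controls (ranks 1 to 3, 4 to 20 and 21 to 83), with the total above each bar. Totals run from 19.24% to 22.34%, and the lowest band, ranks 1 to 3, varies most, from 3.27% to 6.54%.

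The gene of first rank, ENSOCUG00000008481, stood at 17735, 18707 and 20404 CPM in controls, 1.89% of counts on average. It stood at 18537 and 18381 CPM with a hernia, 14967 and 16967 CPM with occlusion, and 12292, 15760 and 14795 CPM with both. Every library with occlusion lay below every library without it. Those without it include the controls that chose the gene, and the share of all genes in this state is not given here. The log2 change from hernia to hernia with occlusion was -0.36 ± 0.17 (SE), which did not pass (edgeR adjusted p = 0.279). Occlusion against hernia gave -0.17 ± 0.19 (SE), which also missed the threshold (edgeR adjusted p = 0.818). ENSOCUG00000002024 ranked second, at 18585, 16628 and 16368 CPM in controls. With a hernia it reached 30761 and 20577 CPM, with occlusion 10976 and 24974 CPM, and with both 12771, 19172 and 11779 CPM. It was the most abundant gene of 6 of the 10 libraries, and ENSOCUG00000008481 was that of the other 4. Both hernia libraries lay above all controls, while the occlusion libraries lay on either side of them. Its log2 change from hernia to hernia with occlusion was -0.82 ± 0.36 (SE), which did not pass (edgeR adjusted p = 0.249).

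The third gene, ENSOCUG00000020733, sits in the table row next to that of ENSOCUG00000002024. Its controls were at 13263, 12771 and 11783 CPM and its hernia libraries at 16076 and 13607 CPM. Its occlusion libraries were at 6748 and 16786 CPM, and hernia with occlusion gave 9046, 11152 and 6937 CPM. As for its neighbour, every library with both operations lay below both hernia libraries, and the change of -0.71 ± 0.35 (SE, log2) did not pass (edgeR adjusted p = 0.285). The fourth, ENSOCUG00000029096, overlapped between all groups, with means of 8309 ± 1620 CPM in controls (SD, n = 3), 10300 ± 1390 with a hernia (SD, n = 2), 9743 ± 1950 with occlusion (SD, n = 2) and 10850 ± 1750 with both (SD, n = 3). The fifth, ENSOCUG00000010104, was at 7658, 4700 and 6635 CPM in controls and at 4026 and 4632 CPM with a hernia. It was at 7497 and 3971 CPM with occlusion and at 6489, 6894 and 7690 CPM with both, so all treated hernia libraries lay above both untreated ones. That change of 0.71 ± 0.29 (SE, log2) did not pass (edgeR adjusted p = 0.226).

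At the threshold itself, ENSOCUG00000024505 and ENSOCUG00000025474 were just inside, with control means of 1029 and 1012 CPM. ENSOCUG00000027002 and ENSOCUG00000022928 were just outside, at 995 and 984 CPM. The abundant set was largely the same in operated lungs. The same floor of 1000 CPM applied to group means gave 79 genes with a hernia, of which 73 were among the 83 (88% of the 83 and 92.4% of the hernia list). With occlusion it gave 79 genes, 77 of them shared (92.8% of the 83 and 97.5% of the occlusion list). With hernia and occlusion it gave 74 genes, 70 of them shared (84.3% and 94.6%). A mean of 1000 CPM was met in all 4 groups by 61 of the 83 genes, and 1000 CPM in all 10 libraries by 48. Since the genes were chosen for high control values, lower values elsewhere were more likely, and these losses are given as a description. Of the 5 leading control genes, 4 were also among the 5 leading genes of each operated group.

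Variation between libraries was modest for most of the 83. Over the 3 controls the coefficient of variation had a median of 9.6%, beside 7.78% for the 2147 genes with control means of 100 to 1000 CPM and 11.5% for all 13379 genes tested. It was lowest for ENSOCUG00000025258, at 1.89%. It was highest for ENSOCUG00000029112, at 57.4%, whose controls stood at 707, 1964 and 883 CPM. The highest library was at least 2-fold above the lowest for 18 of the 83 genes (21.7%), against 13.7% of the genes at 100 to 1000 CPM and 35.1% of all genes tested.

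A range of at least 4-fold was seen in 2 of the 83 genes. One was ENSOCUG00000029112, with a 4.72-fold range. The other was ENSOCUG00000014249, of rank 13, with a 24.5-fold range. ENSOCUG00000014249 stood at 3106, 4406 and 3099 CPM in controls, at 1007 and 3245 CPM with a hernia, at 363 and 558 CPM with occlusion, and at 1032, 1654 and 180 CPM with both. Only hernia replicate 2 lay within the control range, and the other 6 operated libraries lay below all controls. Its group means differed by up to 7.68-fold, the widest of the 83, followed by 2.12-fold for ENSOCUG00000013954. For hernia with occlusion against hernia its log2 change was -1.14 ± 0.73 (SE), and it did not pass (edgeR adjusted p = 0.397). Occlusion against hernia gave -2.16 ± 0.85 (SE) and likewise missed the threshold (edgeR adjusted p = 0.638). The value was -1.87 without occlusion replicate 1 and -2.52 without replicate 2.

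**Figure D2:**
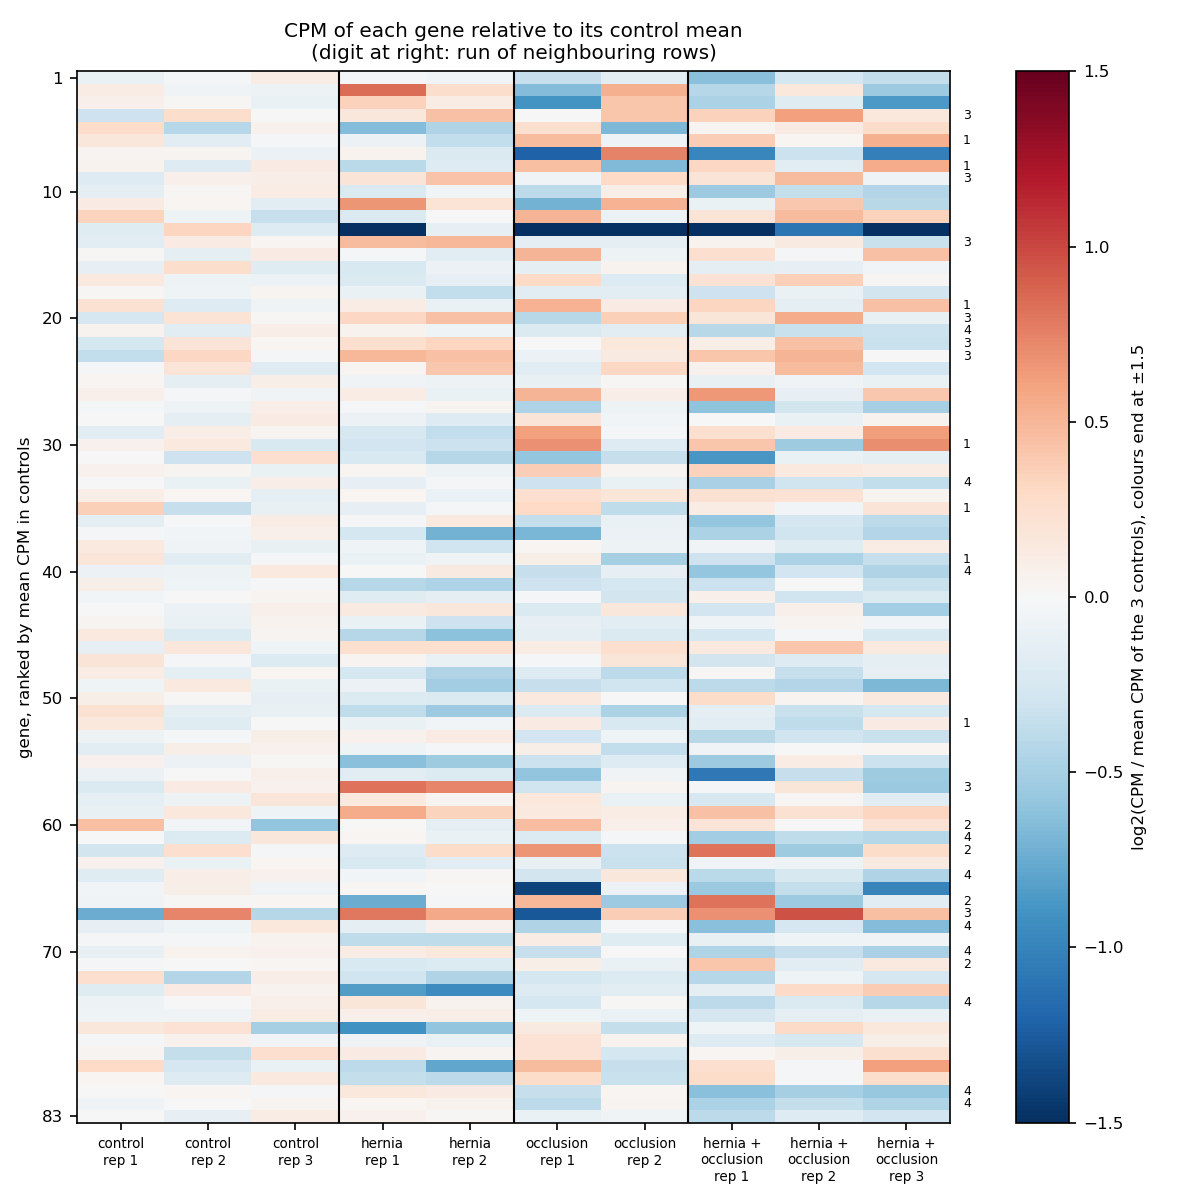
Each row is 1 of the 83 genes in order of rank and each column 1 library, coloured by log2 of its CPM over the mean CPM of the 3 controls, with red higher and blue lower. Digits at the right mark genes of 4 runs of neighbouring table rows. The dark blue row at rank 13 is ENSOCUG00000014249, and genes marked 4 are blue in all 3 hernia with occlusion columns.

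The first tested comparison sets hernia with occlusion against hernia alone, and neither group entered the choice of genes. No gene of the 83 passed (edgeR adjusted p 0.0867 at the lowest), where 0.00747% of all genes were called, that is 1 gene. At an unadjusted edgeR p under 0.05, 11 genes were higher (13.3%) and 16 lower (19.3%), against 10.5% and 9.41% of all genes. Among the genes at 100 to 1000 CPM these shares were 17% and 10.2%. Every treated library lay above both untreated ones for 21 of the 83 genes (25.3%) and below for 28 (33.7%), against 20.4% and 20.6% of all genes. DESeq2 called 15 of the 83 (18.1%), 5 higher and 10 lower, against 7.45% of the genes for which it gave an adjusted p. The changes had a median of 0.00 on the log2 scale, against -0.01 for all genes, and ran from -1.14 to 1.09. The number at an unadjusted p under 0.05 was 27 in all (32.5%, against 19.9% of all genes). It was lower with 1 library of either group left out, except for hernia with occlusion replicate 2. It was 14 without hernia replicate 1 (16.9%, against 11.9% of all genes) and 15 without hernia replicate 2 (18.1%, against 12.5%). It was 17 without hernia with occlusion replicate 3 (20.5%, against 13%) and 18 without replicate 1 of that group (21.7%, against 15.8%). Without replicate 2 of that group it rose to 32 (38.6%, against 23.2%). In a fit of only the 7 libraries from operated fetuses it was 22 (26.5%, against 15.8%). That fit called 0 genes of the whole table. Leaving out an occlusion library, which neither group holds, raised the edgeR calls over the whole table from 1 to 418 genes without replicate 1 and 439 without replicate 2. These are 3.13% and 3.28% of all genes, and 4 of the 83 (4.82%) were among them each time.

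**Figure D3:**
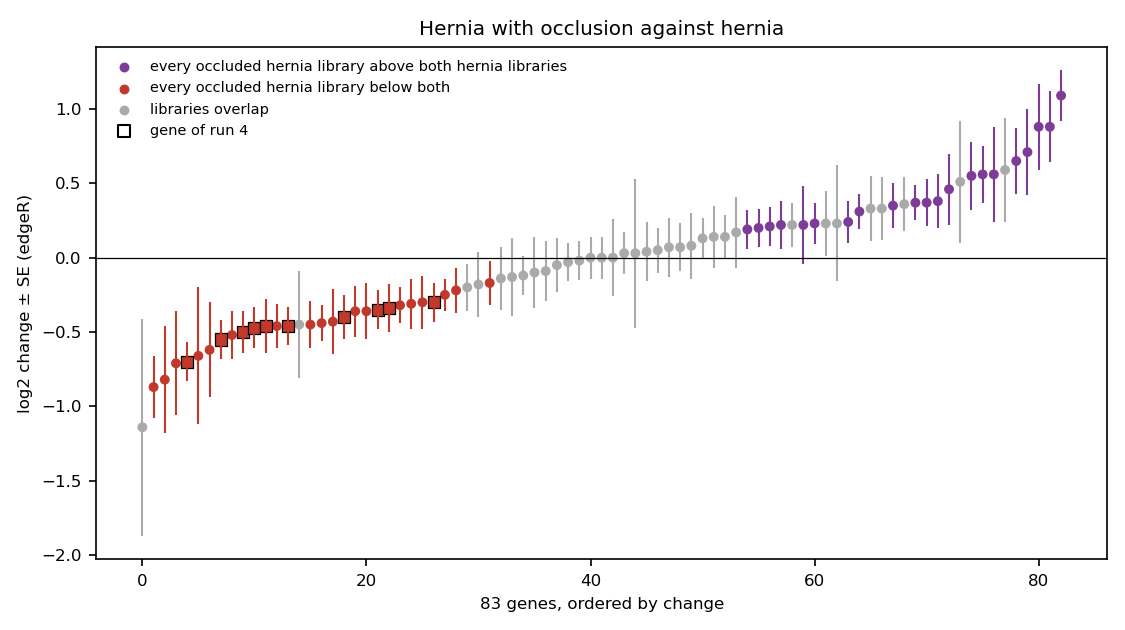
Points show the log2 change of each of the 83 genes between hernia with occlusion (3 libraries) and hernia (2 libraries), with the standard error as a bar, ordered from lowest to highest. Colour shows whether the libraries of the groups overlap, and the 10 squares, genes of the fourth run of neighbouring rows, all lie below 0, between -0.70 and -0.30.

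ENSOCUG00000013954 had the lowest p of the 83. It stood at 1009, 1243 and 1183 CPM in controls, at 638 and 596 CPM with a hernia, at 999 and 1020 CPM with occlusion, and at 1039, 1399 and 1492 CPM with both. Both hernia libraries lay below all 8 others, which ran from 999 to 1492 CPM. Its change from hernia to hernia with occlusion was 1.09 ± 0.17 (SE, log2), with an edgeR adjusted p of 0.0867, or 0.206 with the controls left out of the fit. In those 2 table-wide larger sets of calls it passed (edgeR adjusted p = 0.0337 and 0.0345; 2.23e-07 in DESeq2 to 0.343 over 17 alternatives). Against occlusion alone, the hernia libraries were also the lower: occlusion against hernia gave 0.74 ± 0.18 (SE, log2), which did not pass in edgeR (adjusted p = 0.503) and passed in DESeq2 (adjusted p = 0.0207). The change was 0.77 without occlusion replicate 1 and 0.72 without replicate 2.

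ENSOCUG00000025901 had a like order. It was at 1257, 1295 and 790 CPM in controls, 595 and 741 CPM with a hernia, 1222 and 873 CPM with occlusion, and 1062, 1359 and 1242 CPM with both. Hernia libraries were again the lowest 2 of the 10, control replicate 3 being next. The change from hernia to hernia with occlusion was 0.88 ± 0.24 (SE, log2; edgeR adjusted p = 0.119; 0.00784 in DESeq2 to 0.41 over 17 alternatives).

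ENSOCUG00000025258 went the other way. It was at 1040, 1058 and 1019 CPM in controls, 1160 and 1135 CPM with a hernia, 819 and 1064 CPM with occlusion, and 671, 733 and 702 CPM with both. The 3 libraries with both operations were the lowest of all 10. The change from hernia to hernia with occlusion was -0.70 ± 0.13 (SE, log2), with an edgeR adjusted p of 0.088, or 0.206 with the controls left out of the fit. It passed in the same 2 reduced fits (edgeR adjusted p = 0.0291 and 0.0315; 3.31e-05 in DESeq2 to 0.343 over 17 alternatives).

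ENSOCUG00000014699 followed the same order, with 1077, 1206 and 1215 CPM in controls, 1257 and 1299 CPM with a hernia, 919 and 1160 CPM with occlusion, and 853, 917 and 834 CPM with both. Occlusion replicate 1 lay just above the highest library with both operations. The change from hernia was -0.55 ± 0.13 (SE, log2; edgeR adjusted p = 0.104). The gene passed in those reduced fits as well (edgeR adjusted p = 0.0361 and 0.0379; 0.0016 in DESeq2 to 0.37 over 17 alternatives).

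**Figure D4:**
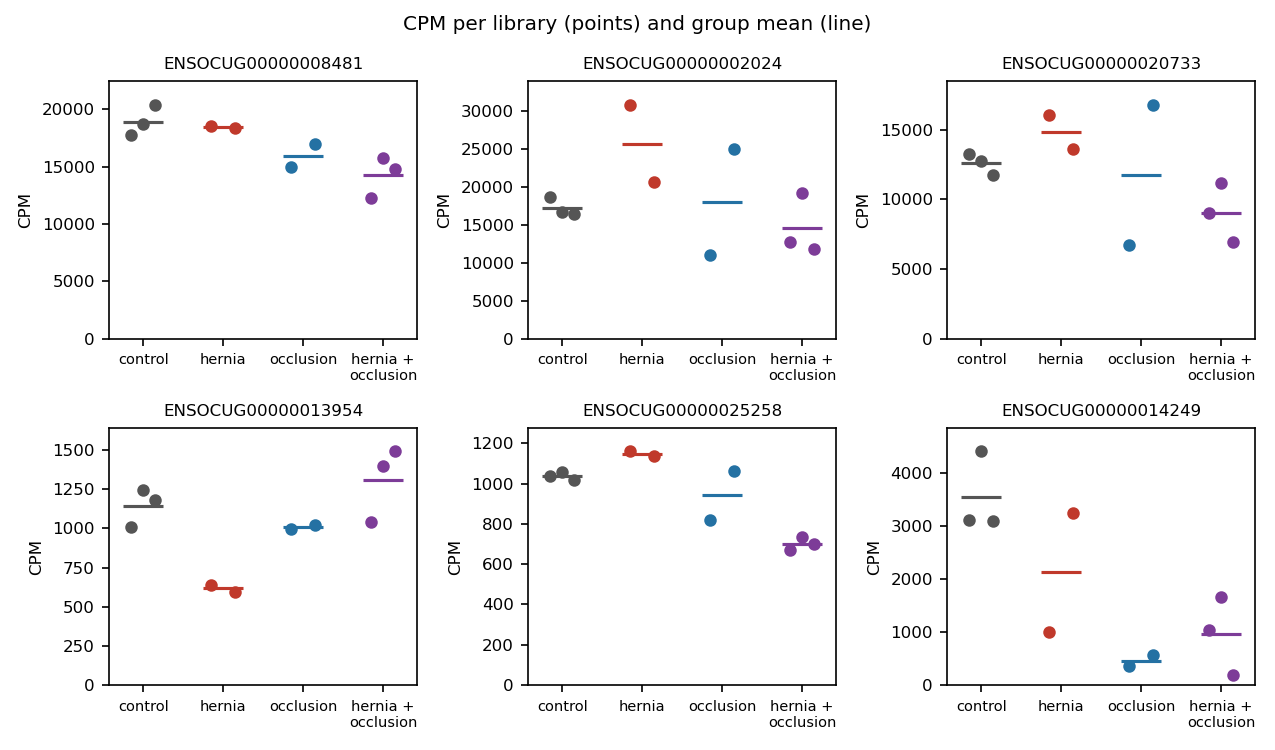
Points are libraries and lines are group means, in CPM from 0, for the 3 genes of highest control level (top) and for ENSOCUG00000013954, ENSOCUG00000025258 and ENSOCUG00000014249 (bottom). ENSOCUG00000013954 is at 638 and 596 CPM with a hernia and at 999 CPM or more elsewhere, and ENSOCUG00000014249 is at 363 and 558 CPM with occlusion against at least 3099 CPM in controls.

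Many of the 83 genes stand close together in the deposited table. Its rows do not follow the identifiers, since 57.4% of rows have a higher identifier number than the row before, and no source used here says what orders them. Joining genes of the 83 that lie at most 12 rows apart, and keeping groups of at least 4, gave 4 runs with 29 of the 83 genes. This grouping was set after the values were seen, and no run was tested as a set. The p-values given for single genes of a run come from the comparisons over all genes and do not test the grouping. Neighbouring genes may also share reads if they are close copies, which these files cannot show.

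The fourth run held 10 genes within 54 rows, with control means from 1029 to 2561 CPM, ENSOCUG00000025258, ENSOCUG00000014699 and ENSOCUG00000024505 among them. It took 1.34%, 1.33% and 1.48% of counts in controls, 1.41% and 1.42% with a hernia, 1.12% and 1.35% with occlusion, and 0.988%, 1.11% and 1.02% with both. All 10 genes were lower in every hernia with occlusion library than in either hernia library, a state seen in 20.6% of all genes. Pairs of these genes had a median correlation of 0.9 over the libraries, against 0.004 among the 83. The 10 genes are therefore not independent observations, and their number cannot be weighed against the share of all genes. All 10 were also lower than in every control, as were 10.2% of all genes, and the choice of genes by high control values favours this. Their log2 changes from hernia ran from -0.70 to -0.30, and 9 had an unadjusted edgeR p under 0.05. In the same 54 rows stood 23 further genes with control means of 100 to 1000 CPM. Of these, 21 were lower and 19 did not overlap, with a median log2 change of -0.57. Of the 21 tested genes under 100 CPM in these rows, 11 were lower and 4 did not overlap (19%), a share near that of all genes. The sign of all 10 held under all 17 alternatives run, scalings included, with medians from -0.51 to -0.40. These alternatives reuse the same libraries. Without hernia replicate 1 the number at p under 0.05 was 4, and without hernia with occlusion replicate 1 it was 5.

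The third run held 8 genes within 12 rows, led by ENSOCUG00000029096, and their identifiers also lie close together, from number 29086 to 29115. It took 2.14%, 3.04% and 2.61% of counts in controls, 3.29% and 3.56% with a hernia, 2.38% and 3.11% with occlusion, and 3.10%, 3.68% and 2.53% with both. The hernia libraries lay above all controls, occlusion lay below the hernia libraries, and hernia with occlusion overlapped with all other groups. In hernia against control all 8 genes were higher, with 6 not overlapping, where 20.7% of all genes were higher without overlap. Pairs of genes in this run had a median correlation of 0.76, so the 8 are not independent observations either. In hernia with occlusion against hernia 6 of 8 were lower. The 2 whose groups did not overlap, ENSOCUG00000029108 and ENSOCUG00000029086, were named after their values were seen. ENSOCUG00000029086 was at 1086, 1371 and 1314 CPM in controls, 2206 and 2082 CPM with a hernia, 1018 and 1294 CPM with occlusion, and 1245, 1421 and 852 CPM with both. ENSOCUG00000029108 was at 3094, 3778 and 3556 CPM in controls, 4842 and 4905 CPM with a hernia, 3132 and 3161 CPM with occlusion, and 3596, 3822 and 2761 CPM with both. For each of these genes the hernia libraries were the highest 2 of the 10. Neither passed in edgeR (adjusted p = 0.105 and 0.146), and both passed in DESeq2 (adjusted p = 0.00351 and 0.0166). ENSOCUG00000029112, the gene of the highest spread among controls, belongs to this run. It stood at 2043 and 1758 CPM with a hernia, at 489 and 1534 CPM with occlusion, and at 1903, 2305 and 1617 CPM with both.

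The first run held 7 genes within 24 rows and took 2.17%, 1.74% and 1.90% of counts in controls. It took 1.75% and 1.69% with a hernia, 2.62% and 1.65% with occlusion, and 2.31%, 1.74% and 2.62% with both. The second held 4 genes within 23 rows and took 0.496%, 0.5% and 0.44% in controls, 0.398% and 0.475% with a hernia, 0.651% and 0.417% with occlusion, and 0.717%, 0.392% and 0.525% with both. In both runs the highest 3 libraries were occlusion replicate 1 and hernia with occlusion replicates 1 and 3, the libraries that stand apart on the first component of all genes, and the part of that component was not tested. Among the 54 genes outside the runs, 9 were higher and 5 lower at an unadjusted edgeR p under 0.05 in hernia with occlusion against hernia. These are 16.7% and 9.26%, against 10.5% and 9.41% of all genes.

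**Figure D5:**
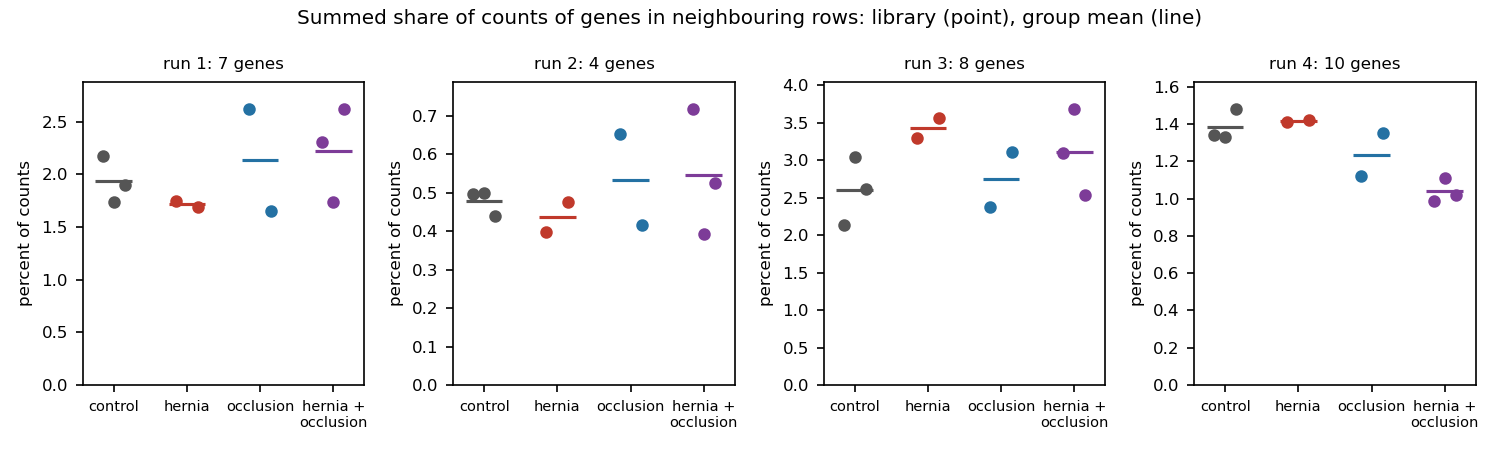
Points are libraries and lines are group means of the summed percent of counts of the genes in each run of neighbouring rows, with each axis from 0. In run 4 the 3 hernia with occlusion libraries, at 0.988% to 1.11%, lie below the lowest of all others, 1.12%, and in run 3 the hernia libraries, at 3.29% and 3.56%, lie above the controls.

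Hernia with occlusion against occlusion compares occluded lungs with and without a hernia. No gene of the 83 passed in edgeR (0% of all genes were called) or in DESeq2 (0.211% of genes with an adjusted p). At an unadjusted edgeR p under 0.05, 0 were higher and 3 lower (3.61%), against 1.21% and 3.52% of all genes. These 3, ENSOCUG00000025258, ENSOCUG00000024794 and ENSOCUG00000001606, the latter 2 named after their values were seen, all belong to the fourth run, and all 10 genes of that run were lower, from -0.45 to -0.20 on the log2 scale. All 10 stayed lower without either occlusion library, from -0.64 to -0.23 without replicate 1 and from -0.25 to -0.05 without replicate 2. ENSOCUG00000025258 led with -0.45 ± 0.13 (SE, log2; edgeR adjusted p = 0.975), which was -0.64 without occlusion replicate 1 and -0.24 without replicate 2. Without occlusion replicate 1, 20 of the 83 had an unadjusted p under 0.05, 16 of them lower, and without replicate 2 there were 4. These are 24.1% and 4.82%, against 16.7% and 3.49% of all genes in the same fits. The median change of the 83 was -0.04, against 0.01 for all genes.

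Occlusion against hernia compares the single operations. No gene of the 83 passed in edgeR (0% of all genes were called), and DESeq2 called 1, ENSOCUG00000013954 (1.2%, against 0.524% of genes with an adjusted p). At an unadjusted edgeR p under 0.05, 6 were higher (7.23%) and 3 lower (3.61%), against 4.82% and 2.74% of all genes. The 3 lower were ENSOCUG00000014249 and, named after their values were seen, ENSOCUG00000029086 and ENSOCUG00000029108 of the third run. Without occlusion replicate 2, 29 of the 83 had an unadjusted p under 0.05, and without replicate 1 there were 4. These are 34.9% and 4.82%, against 18.6% and 5.36% of all genes in the same fits. The median change was 0.03, against 0.00 for all genes.

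Against controls the 83 genes are described without a test, since high control values chose them and make lower values elsewhere more likely. With a hernia their log2 changes had a median of -0.10, from -0.92 to 0.74, and 56 were negative. Libraries did not overlap for 14 genes upward and 23 downward (16.9% and 27.7%), where all genes gave 20.7% and 14.5%. With occlusion the median was -0.05, from -2.93 to 0.34, with 2 genes above all controls (ENSOCUG00000005867 and ENSOCUG00000012332, named after their values were seen) and 17 below (2.41% and 20.5%), where all genes gave 9.34% and 10.9%. With both operations the median was -0.12, from -1.91 to 0.70, with 3 above (ENSOCUG00000014520, ENSOCUG00000004142 and ENSOCUG00000014967, likewise) and 27 below (3.61% and 32.5%), where all genes gave 13.4% and 10.2%. The median of all genes was 0.01 in each of these comparisons, which share the 3 control libraries. The largest single difference was that of ENSOCUG00000014249 with occlusion, -2.93 ± 0.84 (SE, log2), or -2.65 and -3.29 without occlusion replicates 1 and 2 in turn. ENSOCUG00000013954 had the lowest value with a hernia, -0.92 ± 0.17 (SE, log2). ENSOCUG00000008481, of first rank, was at -0.07 ± 0.18 with a hernia, -0.24 ± 0.18 with occlusion and -0.43 ± 0.16 with both (SE, log2).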

How the data were processed

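Per the submitters' processing notes, the authors used kallisto 0.42.2.1, edgeR and the rabbit build OryCun2.0, with no role or order given. The authors deposited 1 table of estimated counts as whole numbers, which sum to 16383835 to 22239034 per library although its name speaks of CPM. No source used here states how transcripts were summed, rounded or filtered. CPM in the text is count over column total. Of the 13429 genes, 50 that did not reach 1 CPM in 2 or more libraries were dropped, and 13379 entered edgeR's quasi-likelihood test (edgeR 4.0.16, R 4.3.3), with trimmed mean of M-values scaling and 1 mean for each of the 4 groups over all 10 libraries, leaving 6 residual degrees of freedom. P-values were Benjamini-Hochberg adjusted over all genes within a comparison, and adjusted p under 0.05 was called. Replicates were numbered in accession order, and the numbers pair nothing. DESeq2 1.42.0 and limma 3.58.1 were alternatives. The principal component used log2(CPM + 0.5).

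The genes and lists were chosen with earlier results of these data known. Genes named are the 5 highest in controls, the 2 on either side of the threshold, those of highest and lowest control variation, the 2 widest in group means, and the 2 lowest p in each direction among genes whose groups do not overlap. Marker lists by symbol could not be applied, since no identifier matched a symbol.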

Additional observations from a re-analysis of the deposited data

Results flagged for a closer look

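Several values differed in opposite directions in hernia against control and in hernia with occlusion against occlusion. In each case every library of the operated group lay on one side of the comparison group's mean, and every library of the other such group lay on the opposite side of its own. Values are differences of group means with 2 or 3 libraries a side, and the difference between them was not tested. This state is common: for the effect of a hernia it was met by 17 of the 83 genes (20.5%) and by 19.5% of all genes tested.

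ENSOCUG00000013954 gave -528 CPM for a hernia against control and 301 CPM for a hernia under occlusion. For occlusion the same gene gave -136 CPM without a hernia and 693 CPM with one. For the effect of occlusion, the state was met by 9 of the 83 genes (10.8%) and by 11.2% of all genes. Both contrasts of this gene kept opposite signs with any 1 of the 10 libraries left out. The next 3 genes did not: the sign of their second value rests on occlusion replicate 2. ENSOCUG00000025901 gave -446 CPM without occlusion and 173 CPM with it, and the latter was -1.4 CPM without that library. ENSOCUG00000010104 gave -2000 CPM and 1290 CPM in the same order, and the latter was -473 CPM without it. ENSOCUG00000020733 gave 2240 CPM without occlusion and -2720 CPM with it, and the latter was 2300 CPM without that library.

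In the fourth run of neighbouring rows, the summed share of counts changed by 0.0272 percentage points with a hernia alone and by -0.197 points under occlusion. Its genes ENSOCUG00000025258, ENSOCUG00000014699 and ENSOCUG00000024505 gave 109, 112 and 30.8 CPM without occlusion and -240, -171 and -157 CPM with it. ENSOCUG00000025474, just inside the threshold, gave 25.3 CPM without occlusion and -130 CPM with it. Without control replicate 2 its first value was -14.3 CPM, so its opposite signs rest on that library. Those of the run and its 3 genes held with any 1 library left out, but some values shrank. Without occlusion replicate 2 the second values were -0.0834 points for the run and -117, -50.8 and -19.5 CPM for its genes as listed. The run's first value was 0.00131 points without control replicate 2. Its hernia shares, 1.41% and 1.42%, lay within the control range of 1.33% to 1.48%.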

How the results depend on the processing

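A floor of 500 CPM gave 253 genes with 32.7% of control counts, and 2000 CPM gave 30 genes with 14.1%. Asking for 1000 CPM in each control gave 20%, and choosing on the mean of all 10 libraries gave 20.9%, with 79 of the 83 genes shared. Leaving each control out of the choice gave 82 to 85 genes and 21% to 21.3%. DESeq2 called 15 of the 83 in hernia with occlusion against hernia and 1 in occlusion against hernia, where edgeR called 0. Leaving out 1 library gave 0 to 4 edgeR calls in hernia with occlusion against hernia and 0 in the other comparisons. The 4 calls, ENSOCUG00000013954, ENSOCUG00000014699, ENSOCUG00000025258 and ENSOCUG00000024505, came without occlusion replicate 1 or 2, libraries that are not part of the comparison, in fits that called 3.13% and 3.28% of all genes. The cause was not tested. The difference in share between hernia with occlusion and hernia kept its sign in the 7 alternatives run for it, from -2.42 to -1.25 points. The median log2 change in hernia with occlusion against control was -0.10 with column totals and -0.07 for genes chosen on all libraries. Leaving out 1 library gave -0.13 to -0.10 there and -0.13 to -0.04 in occlusion against control, the lowest without occlusion replicate 2. In hernia against control (-0.10) it gave -0.14 to -0.06, the latter without hernia replicate 2. The cause of these shifts was not tested. The labels give no replicate numbers, and no paired analysis was run. Title stems are shared by 2 pairs of libraries across groups, neither pair includes a library with a hernia alone, and what they stand for is not stated. A random effect of the stem left the calls among the 83 at 0 in each tested comparison. Limma without that effect also gave 0. The stem correlation was -0.374 and rests on the 2 shared pairs. This fit therefore cannot tell whether the stems matter. Groups of 2 and 3 limit all comparisons.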
